A study of Mus musculus with 4 samples.

Results

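The 38 Hox genes described here are all genes of the deposited tables whose symbol is Hox followed by a cluster letter (a, b, c or d) and a paralog number, out of 25814 genes listed. The Hoxa cluster gave 11 of them, the Hoxb cluster 10, the Hoxc cluster 9 and the Hoxd cluster 8. Hoxd4, which is listed as 2 separate entries with a suffix, fell outside this rule. RNA was sequenced from keratinocytes (KCs), which build the epidermis and were isolated from the tails of adult 129/sv mice and grown untreated in serum-free medium of low calcium. The 2 Wildtype libraries came from mice with intact Nfat5 and the 2 Nfat5-Knockout libraries from mice deficient in Nfat5, the gene of a transcription factor of the NFAT family that responds to hypertonic stress. The comparison asks how gene expression in cultured tail KCs differs without Nfat5. Per the study's methods, the Wildtype mice were littermates of the Nfat5-deficient mice. The paper speaks of KCs from 2 Wildtype and Nfat5-deficient sibling mice, without saying how many of each. The labels do not tie each library to a mouse. The p-values therefore rest on the spread between these libraries, which may be technical and which edgeR moderates over all genes.

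Hox genes encode homeodomain transcription factors that give cells their position along the body. They lie in 4 clusters, and within a cluster the order of the genes follows the order in which they are used from head to tail, so that genes of high paralog number mark the most posterior tissues. Genes with the same number in different clusters are paralogs with closely similar homeodomains, and adult skin cells keep a Hox pattern typical of their site of origin. Hoxc13, in addition, controls keratin genes of hair and nail.

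The homeobox, the part of the gene that encodes the DNA-binding homeodomain, is the stretch where paralogs are most alike, and the reads were only 59 bases long. The homeoboxes of Hoxb9 and Hoxc9, which belong to the paralog group with the largest summed level in these KCs, are therefore shown first, each as 180 coding bases in the sense direction of the gene from GENCODE M21 on GRCm38. Capitals mark the bases that differ from Hoxb9 at the same place.
Hoxb9: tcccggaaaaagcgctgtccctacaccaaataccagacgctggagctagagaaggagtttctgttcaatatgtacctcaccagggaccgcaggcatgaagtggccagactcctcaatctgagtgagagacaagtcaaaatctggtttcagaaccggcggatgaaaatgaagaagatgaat
Hoxc9: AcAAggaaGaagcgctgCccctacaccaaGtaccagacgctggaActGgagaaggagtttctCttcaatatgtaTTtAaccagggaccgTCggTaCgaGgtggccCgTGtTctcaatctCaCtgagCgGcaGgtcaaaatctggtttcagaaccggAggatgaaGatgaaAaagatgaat
The Hoxb9 homeobox lies in exon 2 of 2 at chr11:96274659-96274838 on the plus strand and that of Hoxc9 in exon 3 of 3 at chr15:102983930-102984109 on the plus strand. Hoxc9 differed from Hoxb9 at 29 bases, and the longest identical run was 24 bases, which is shorter than a read. Across the coding transcripts of all 38 members, 0 members shared any run of 59 bases, on either strand, with a Hox gene of another cluster, so an error-free read of full length from these transcripts fits only 1 of the paralogs.

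The second comparison of sequences is that of Hoxc13, which was read in every library, with Hoxa13, which had 0 reads in every library. Capitals mark the bases of Hoxa13 that differ from Hoxc13.
Hoxc13: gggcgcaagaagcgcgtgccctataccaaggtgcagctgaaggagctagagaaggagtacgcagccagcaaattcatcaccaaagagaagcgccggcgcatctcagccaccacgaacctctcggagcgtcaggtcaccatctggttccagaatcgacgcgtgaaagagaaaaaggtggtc
Hoxa13: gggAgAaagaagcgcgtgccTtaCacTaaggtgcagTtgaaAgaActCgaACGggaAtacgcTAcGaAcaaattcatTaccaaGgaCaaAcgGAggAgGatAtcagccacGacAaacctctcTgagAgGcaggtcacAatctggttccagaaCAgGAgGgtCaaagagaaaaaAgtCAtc
The Hoxc13 homeobox lies in exon 2 of 2 at chr15:102927210-102927389 on the plus strand and that of Hoxa13 in exon 5 of 5 of the transcript used at chr6:52258928-52259107 on the minus strand. They differed at 41 of 180 bases, with a longest identical run of 14 bases.

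The 4 libraries held 16219445 to 23494436 reads assigned to genes, of which 4163 to 6941 fell on the 38 Hox genes, or 0.0257% to 0.0295%. Nfat5 itself had 1.67 and 3.0 RPKM (reads in exons per unit of exon length, corrected for library depth) in Wildtype and 2.02 and 2.78 RPKM in Nfat5-Knockout, which is a log2 difference of 0.09 ± 0.26 (SE) with an adjusted p of 0.913 in edgeR. A total over the whole gene cannot show whether single exons are missing, so this value does not check the labels, and every direction given here refers to the libraries as labelled. The keratinocyte genes Krt5 and Krt14 had 4990.4 to 6985.1 RPKM. All 8 fibroblast genes examined stayed under 1 RPKM in every library, with a summed level of 0.413 to 0.598 in Wildtype and 0.59 to 1.35 in Nfat5-Knockout. The 6 smooth muscle genes summed to 151 to 184 RPKM in Wildtype and 518 to 819 RPKM in Nfat5-Knockout. In Nfat5-Knockout 4 of 4 tested were called higher. Nearly all of the sum came from Acta2, at 134 to 723 RPKM, and Tagln, at 16.7 to 93.1 RPKM. Des, Actg2 and Myh11 stayed under 1 RPKM in every library. The 6 melanocyte genes summed to 7.14 to 7.51 RPKM in Wildtype and 2.05 to 2.94 RPKM in Nfat5-Knockout. Of these, 1 of 4 tested, Tyrp1, was called lower in Nfat5-Knockout. The part of these other genes in the Hox values was not tested. In bulk RNA, fewer cells with a transcript and less transcript per cell cannot be told apart.

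Of the 38 Hox genes, 21 reached a mean of 1 RPKM over the 4 libraries, 12 lay between 0.1 and 1 RPKM and 5 lay under 0.1 RPKM. Hoxb9 had the highest level of the family, and its mean of 20.8 RPKM was above that of 84.3% of the 18043 genes with a read. Hoxd9 followed at 10.4 RPKM and Hoxa9 at 8.84 RPKM, so that the 3 highest members all belonged to paralog group 9. The levels peaked at number 9 in the Hoxa, Hoxb and Hoxd clusters and at number 11 in the Hoxc cluster, as the plot of levels by cluster and paralog number shows.

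**Figure D1:**
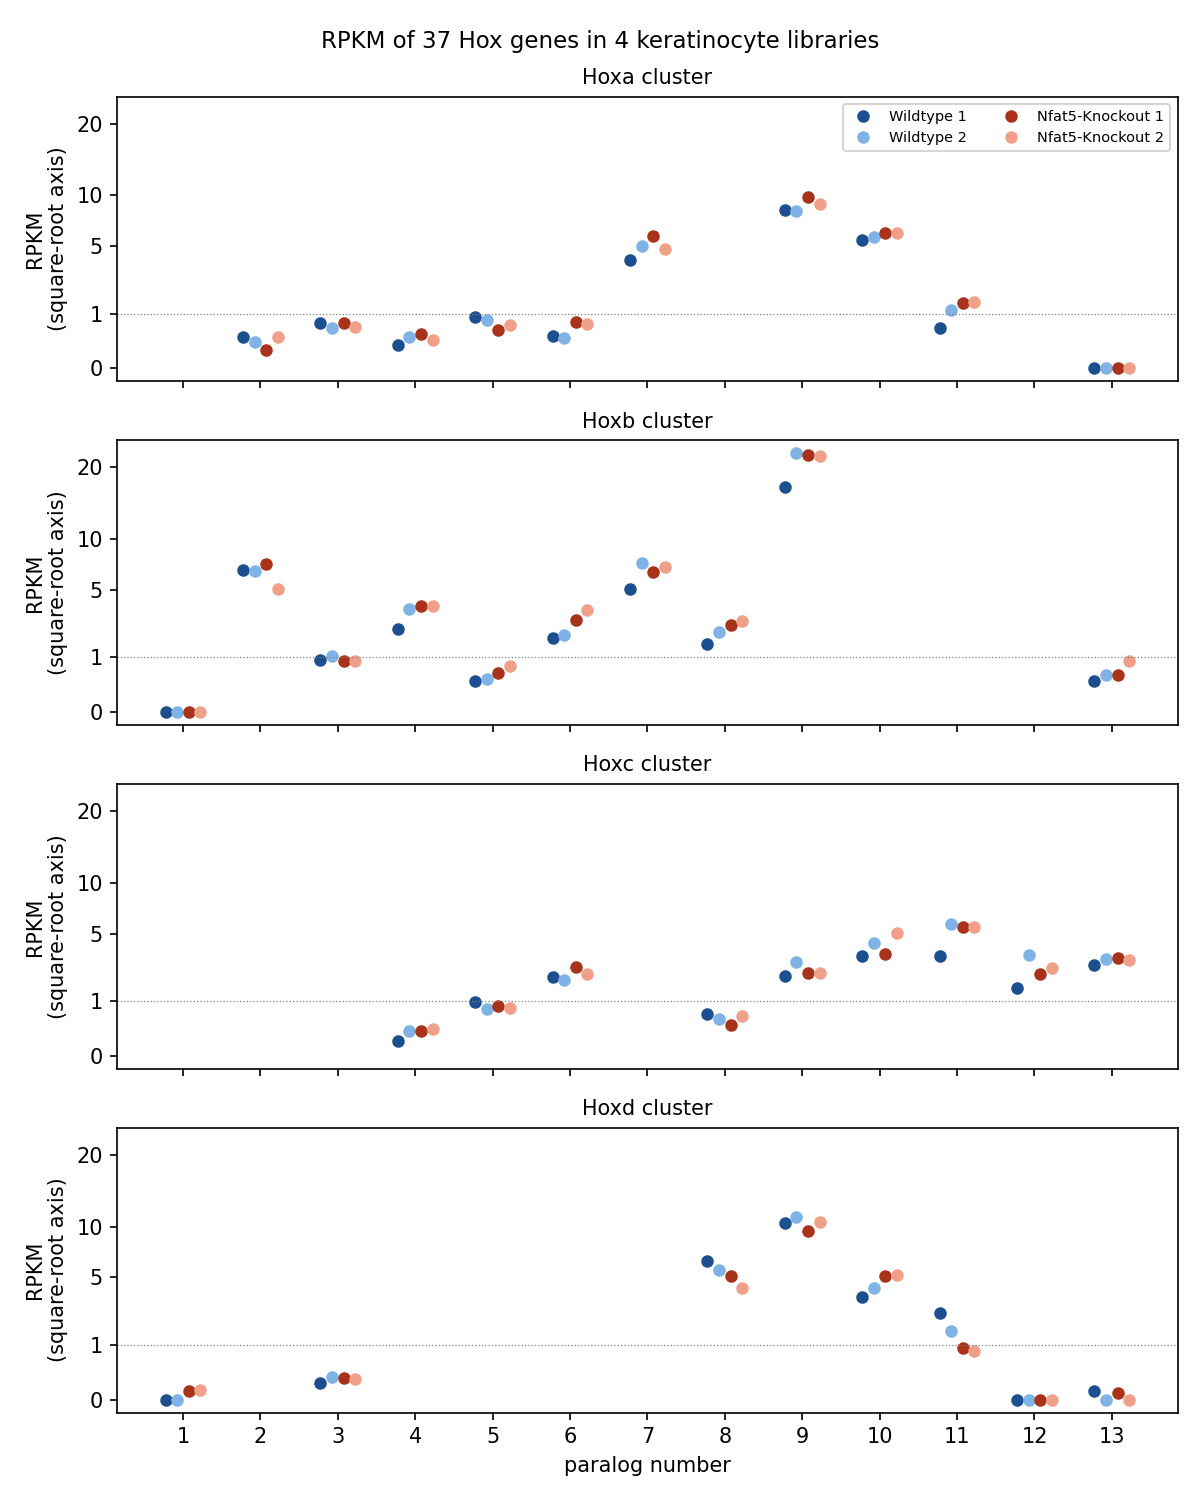
RPKM (square-root axis) of 37 of the Hox genes against paralog number, 1 panel per cluster and 1 point per library, with a dotted line at 1 RPKM. Hoxb9 is the highest at 17.0 to 22.4 RPKM, and Hoxa13, Hoxb1 and Hoxd12 sit at 0 in all 4 libraries.

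In the Hoxb cluster, which lies on chromosome 11, Hoxb9 (chr11:96271457-96276595, plus strand, ENSMUSG00000020875) had 17.0 and 22.4 RPKM in Wildtype and 22.0 and 21.9 RPKM in Nfat5-Knockout. Wildtype replicate 1 was the low library, and the other 3 lay close together. Hoxb7 had 5.08 and 7.45 RPKM in Wildtype and 6.53 and 7.06 RPKM in Nfat5-Knockout, and Hoxb4, known for its action in blood stem cells, had 2.30 and 3.55 against 3.79 and 3.76 RPKM. In both genes Wildtype replicate 1 was again the lowest library. Hoxb2, a gene of hindbrain patterning, had 6.72 and 6.68 RPKM in Wildtype and 7.34 and 5.05 RPKM in Nfat5-Knockout, with the Nfat5-Knockout libraries on either side of the Wildtype pair. Hoxb6 had 1.84 and 2.00 against 2.83 and 3.47 RPKM, and Hoxb8 had 1.55 and 2.16 against 2.52 and 2.78 RPKM. For Hoxb6 and Hoxb8 both Nfat5-Knockout libraries lay above both Wildtype libraries. Hoxb3, Hoxb5 and Hoxb13 had means of 0.48 to 0.927 RPKM, and Hoxb1 had no read.

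In the Hoxa cluster, on chromosome 6, Hoxa9 had 8.35 and 8.24 RPKM in Wildtype and 9.78 and 8.98 RPKM in Nfat5-Knockout. Hoxa10, known for its role in the uterus, had 5.49 and 5.78 against 6.14 and 6.10 RPKM. In both genes the groups did not overlap, and the Nfat5-Knockout pair was the higher one. Hoxa7 had 3.91 and 4.98 RPKM in Wildtype and 5.89 and 4.75 RPKM in Nfat5-Knockout, where the groups overlapped in RPKM but not in normalized gene reads. Hoxa11, which with Hoxd11 shapes the forearm and the kidney, had 0.552 and 1.15 RPKM in Wildtype and 1.45 and 1.49 RPKM in Nfat5-Knockout, and the 2 Wildtype libraries differed by more than the higher of them differed from the Nfat5-Knockout pair. The run from Hoxa2 to Hoxa6 had means of 0.252 to 0.705 RPKM.

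The Hoxc cluster, on chromosome 15, was read over all of its posterior genes. Hoxc11 had 3.36 and 5.83 RPKM in Wildtype and 5.51 and 5.57 RPKM in Nfat5-Knockout, and Hoxc10, a gene of the lumbar spinal cord and hindlimb, had 3.34 and 4.26 against 3.46 and 5.02 RPKM. Hoxc12 had 1.52 and 3.42 against 2.25 and 2.59 RPKM, the Wildtype libraries enclosing the Nfat5-Knockout pair. Hoxc13 (chr15:102921103-102928814, plus strand, ENSMUSG00000001655) had 2.76 and 3.14 RPKM in Wildtype and 3.17 and 3.06 RPKM in Nfat5-Knockout, a mean of 2.95 ± 0.27 against 3.12 ± 0.08 RPKM (SD, n = 2). Hoxc9 had 2.13 and 2.92 against 2.29 and 2.31 RPKM, and Hoxc6 had 2.09 and 1.91 against 2.65 and 2.22 RPKM. Hoxc4, Hoxc5 and Hoxc8 stayed at means of 0.184 to 0.826 RPKM.

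In the Hoxd cluster, on chromosome 2, Hoxd9 had 10.4 and 11.1 RPKM in Wildtype and 9.52 and 10.5 RPKM in Nfat5-Knockout, with overlapping groups. Hoxd8 had 6.38 and 5.58 against 5.11 and 4.18 RPKM, both Nfat5-Knockout libraries being lower. Hoxd10, known for its role in hindlimb motor neurons, had 3.54 and 4.15 RPKM in Wildtype and 5.14 and 5.19 RPKM in Nfat5-Knockout. Its neighbour Hoxd11 (chr2:74679557-74687016, plus strand, ENSMUSG00000042499) had 2.49 and 1.59 RPKM in Wildtype and 0.897 and 0.801 RPKM in Nfat5-Knockout. The 2 adjacent genes thus separated the groups in opposite directions. Hoxd3 had a mean of 0.143 RPKM, and the 2 Hoxd4 entries outside the rule summed to 0.0655 to 0.167 RPKM.

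The 2 ends of the clusters were nearly silent. Hoxa13, Hoxb1 and Hoxd12 had 0 reads in all 4 libraries. Taking 3 reads as the limit that a count of 0 allows, Hoxa13 could have reached 0.0504 to 0.073 RPKM, Hoxb1 0.0597 to 0.0865 RPKM and Hoxd12 0.0492 to 0.0712 RPKM in the single libraries, counting error alone. Hoxd13 had 1 read in each replicate 1 library, and Hoxd1 had 1 read in each Nfat5-Knockout library. Of paralog group 13, which marks the end of the body axis, only Hoxc13 was above 1 RPKM, and Hoxb13, a gene of the tail vertebrae, had 0.327 and 0.471 RPKM in Wildtype and 0.47 and 0.878 RPKM in Nfat5-Knockout.

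Tested on the reads per gene, 33 of the 38 members passed the filter on low counts, the 5 genes with at most 2 reads in all being left out. Of these 33, 0 were called at an adjusted p under 0.05 in edgeR's quasi-likelihood test, against 1.27% of all 12614 genes tested, and DESeq2 also called 0. At an unadjusted p under 0.05, 3 of 33 passed, against 14.6% of all genes. These were Hoxd11, lower in Nfat5-Knockout, and Hoxd10 and Hoxb8, higher. In gene reads normalized to library depth, which include intron reads and can order libraries differently from RPKM, the 2 groups did not overlap in 19 of 33 members, against 47.8% of all genes tested. The log2 fold change was above 0 in 23 of 33 members, against 48.0% of all genes, with a median of 0.16 for the members and -0.01 for all genes. The differences of single members, with their standard errors, are set out in the plot of fold changes.

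**Figure D2:**
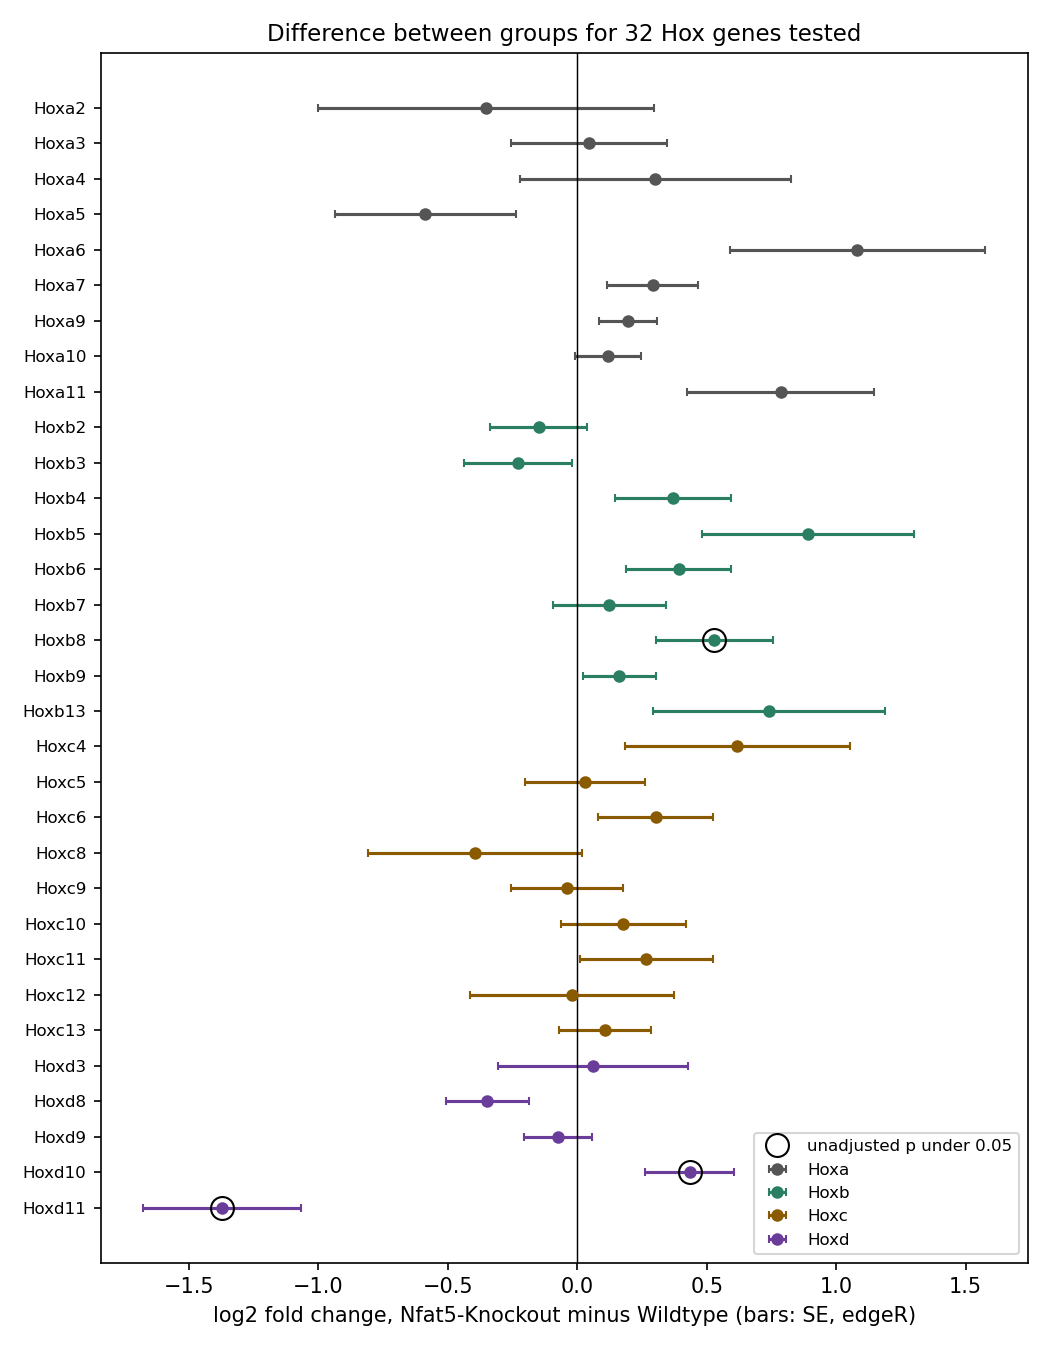
Log2 fold change (Nfat5-Knockout minus Wildtype, edgeR, bars giving 1 SE) of 32 of the Hox genes tested, ordered by cluster and paralog number. Hoxd11 at -1.37 stands farthest from 0, and circles mark the 3 members with an unadjusted p under 0.05, none of which passed after adjustment.

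The lean of the members towards Nfat5-Knockout moved with 1 library. Wildtype replicate 1 had the lowest normalized value in 19 of the 33 members, against 28.0% of all genes tested, while Wildtype replicate 2 was the lowest in 6, Nfat5-Knockout replicate 1 in 6 and Nfat5-Knockout replicate 2 in 2. The median log2 difference of Wildtype replicate 2 minus replicate 1 was 0.18 for the members and -0.003 for all genes. Without Wildtype replicate 1 the median fold change of the members was 0.03 on the log2 scale, with 19 of 33 above 0, and without Wildtype replicate 2 it was 0.34, with 23 above 0. Hoxb9 itself changed from a log2 fold change of 0.16 ± 0.14 (SE) to -0.01 ± 0.14 without Wildtype replicate 1, and Hoxb7 and Hoxc11 likewise turned from positive to slightly negative values. The Wildtype replicate 1 library also held the fewest gene reads, and 7.78% of its Hox reads lay in introns, against 5.04% to 5.63% in the other 3. Their part in the lower Hox values of that library was not tested.

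Hoxd11 had the smallest p of the family. It had 77 and 71 reads in Wildtype and 36 and 28 reads in Nfat5-Knockout, for a log2 difference of -1.37 ± 0.30 (SE) whose Benjamini-Hochberg adjusted p of 0.0923 in edgeR did not pass the threshold. DESeq2 gave -1.38 ± 0.47 (adjusted p = 0.0831), and exon reads alone gave -1.23 ± 0.38 in edgeR (adjusted p = 0.188). It was called in edgeR without the filter on low counts (adjusted p = 0.000581) and without Wildtype replicate 2 (adjusted p = 0.0322). Over all its alternatives the adjusted p ran from 0.000581 to 0.482, and the direction was the same in each. It was also the only 1 of 21 members reaching 1 RPKM in the higher group whose group means differed at least 2-fold, against 2.85% of 10356 genes at that level.

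Hoxd11 was unusual among the expressed members for its intron reads. Introns held 86 of its 212 reads, or 40.6%, whereas Hoxd10 had 6 of 685. Exon reads of Hoxd11, scaled to the library's gene reads (as CPM), stood at 2.84 and 1.80 CPM in Wildtype and at 1.02 and 0.912 in Nfat5-Knockout, a ratio of group means of 0.417. Intron reads stood at 1.91 and 1.48 against 0.511 and 0.59 CPM, a ratio of 0.325. Both kinds of read were therefore lower in both Nfat5-Knockout libraries. GENCODE M21 also lists Gm28309, a processed transcript on the same strand that overlaps both genes and shares 209 of 1053 possible 59-base runs with the coding transcript of Hoxd11 and 47 of 1758 with that of Hoxd10. Gm28309 was not analysed here, and its part in the Hoxd11 reads was not tested. The ratio of Hoxd11 to Hoxd10 in RPKM was 0.703 and 0.382 in Wildtype and 0.174 and 0.154 in Nfat5-Knockout.

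The 2 members with an unadjusted p under 0.05 in the other direction were smaller in size. Hoxd10 had 109 and 168 reads in Wildtype and 228 and 180 in Nfat5-Knockout, for a log2 difference of 0.43 ± 0.17 (SE), with an adjusted p of 0.314 in edgeR. Hoxb8, whose loss in mice leads to excessive grooming, had 69 and 127 reads against 161 and 143, for a log2 difference of 0.53 ± 0.23 (SE), with an adjusted p of 0.341 in edgeR. Hoxa11 reached 0.79 ± 0.36 (adjusted p = 0.377, edgeR), on 21 and 58 reads against 80 and 65. Without Wildtype replicate 1 the log2 difference of Hoxa11 was 0.39 and without Wildtype replicate 2 it was 1.42, and that of Hoxb8 was 0.33 and 0.79. Hoxa11 shares 33.4% of its 59-base runs, on the opposite strand, with the antisense gene Hoxa11os, and Hoxa7 shares 19.0% with Hoxaas3, so that without strand part of the reads of both cannot be told apart from antisense reads. Hoxc13, the regulator of hair keratins, gave 0.11 ± 0.18 (adjusted p = 0.83, edgeR).

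Hoxb6 differed between its exons and introns. Its exon reads stood at 3.70 and 4.03 CPM in Wildtype and at 5.70 and 6.97 in Nfat5-Knockout, a ratio of group means of 1.64, whereas its intron reads stood at 1.66 and 2.45 against 1.36 and 1.34, a ratio of 0.657. Exon reads were higher, and intron reads lower, in both Nfat5-Knockout libraries. On all reads of the gene edgeR gave a log2 difference of 0.39 ± 0.20 (SE) at an adjusted p of 0.437, and on exon reads 0.72 ± 0.22 (adjusted p = 0.194, edgeR). The antisense gene Hoxb5os overlaps Hoxb6. No 59-base run of the Hoxb6 coding transcripts is found in the annotated transcripts of Hoxb5os, so the overlap touches the intron reads, whose strand is not known from the sources used here.

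**Figure D3:**
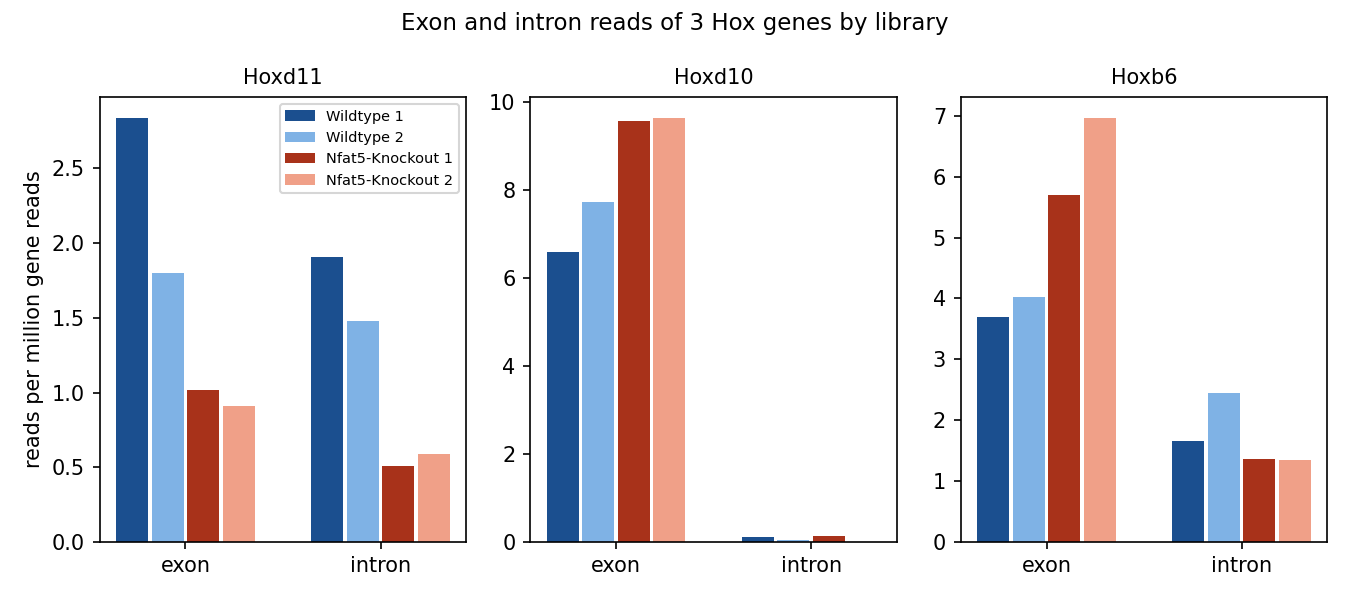
Exon and intron reads (CPM, scaled to the gene reads of the library) of Hoxd11, Hoxd10 and Hoxb6, 1 bar per library. For Hoxd11 both kinds of read are lower in the Nfat5-Knockout libraries, for Hoxd10 nearly all reads lie in exons, and for Hoxb6 the exon bars are higher and the intron bars lower in Nfat5-Knockout.

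Summed over clusters, the Hoxb genes gave the largest share of the family's RPKM, 36.3% to 39.9% by library. Their sum was 36.1 and 46.1 RPKM in Wildtype and 46.9 and 46.5 RPKM in Nfat5-Knockout. The Hoxa sum was 23.5 and 24.8 against 28.9 and 27.1 RPKM, the Hoxc sum 16.8 and 22.9 against 20.7 and 22.3 RPKM, and the Hoxd sum 23.0 and 22.5 against 20.9 and 20.9 RPKM. The Hoxa and Hoxb sums were higher in both Nfat5-Knockout libraries, with ratios of group means of 1.16 and 1.14, the Hoxd sum was lower in both, with a ratio of 0.917, and the Hoxc sums overlapped. The Hoxb difference rested on Wildtype replicate 1, the other Wildtype library lying close to the Nfat5-Knockout pair. With 2 libraries against 2, the 2-sided exact permutation test cannot go below p = 0.333, and that was the value for the Hoxa, Hoxb and Hoxd sums (0.636 after Benjamini-Hochberg adjustment over the 21 sums examined).

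Along the body axis, the posterior genes of numbers 9 to 13 held 61.4% to 63.9% of the family's RPKM, the middle genes of numbers 4 to 8 held 26.5% to 27.9% and the anterior genes of numbers 1 to 3 held 8.87% to 11.5%. Paralog group 9 by itself held 37.1% to 38.3%. The posterior sum was 61.4 and 74.4 RPKM in Wildtype and 72.1 and 74.4 RPKM in Nfat5-Knockout, the middle sum 26.5 and 30.8 against 32.8 and 32.0 RPKM, and the anterior sum 11.4 and 11.1 against 12.5 and 10.4 RPKM. The posterior share thus overlapped between the groups. Of the 13 paralog groups, group 6 had the largest ratio, 1.48, from 4.27 and 4.22 RPKM in Wildtype to 6.20 and 6.35 RPKM in Nfat5-Knockout (exact permutation p = 0.333, the smallest the test can give). Hoxb6 and Hoxc6 made up most of that sum, and Hoxc6 is among the genes with few exon reads counted as unique. The whole family summed to 99.3 and 116 RPKM in Wildtype and to 117 RPKM in each Nfat5-Knockout library.

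**Figure D4:**
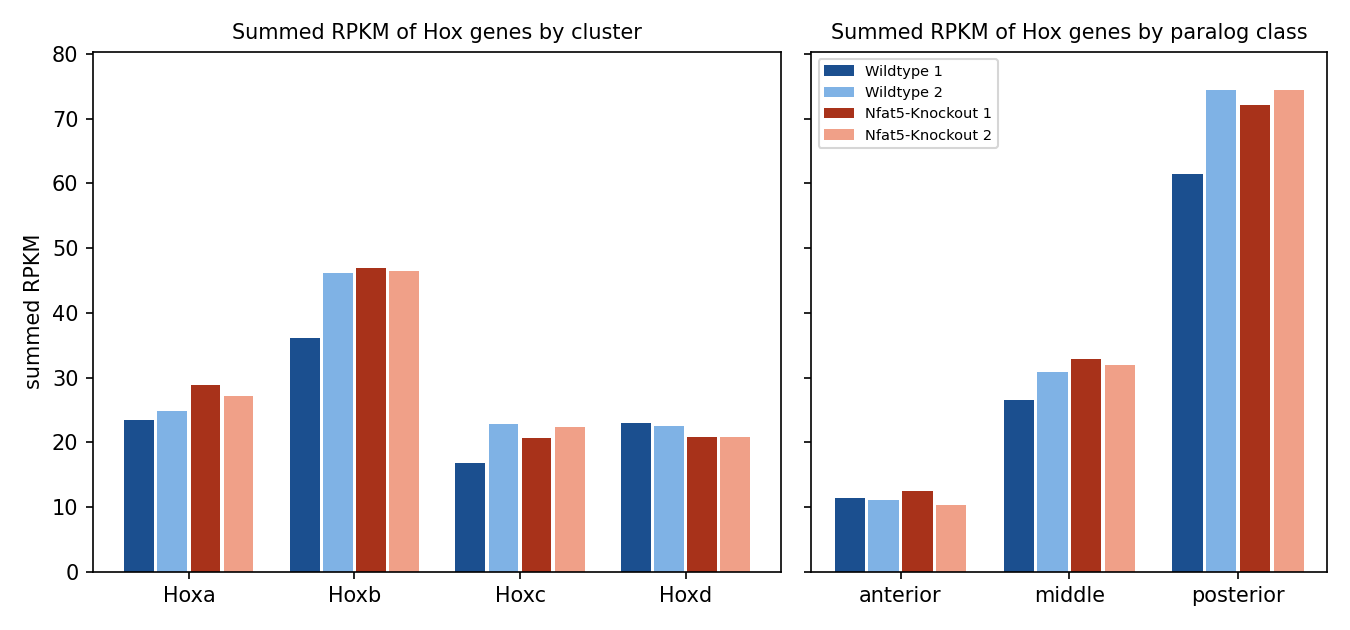
Summed RPKM of the Hox genes by cluster (left) and by paralog class (right), 1 bar per library, on an axis starting at 0. Wildtype replicate 1 is the lowest bar for the Hoxa, Hoxb and Hoxc clusters and for the middle and posterior classes, and the Hoxd bars are lower in Nfat5-Knockout.

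The way reads were credited limits some members. Each deposited table gives exon reads and, separately, those unique to the gene. Of the 11 members that overlap another counted gene, 10 had under 70% unique exon reads, Hoxc5 being the exception, and their median over all 11 was 5.17%. The 24 other members with exon reads had 100%, apart from 1 read of Hoxb9 (4443 of 4444 unique). The long Hoxa3 and Gm28308 models span Hoxa4 to Hoxa6, and the Hoxc5 model covers Hoxc6, Hoxc8, Hoxc9 and most of Hoxc10. Among the expressed members this touches Hoxc6, with 3.45% unique exon reads, Hoxc9, with 5.17%, and Hoxc10, with 38.2%. The coding transcripts of Hoxc6 and Hoxc9 share no run of read length with another Hox gene. That of Hoxc10 shares 5.94% of its runs with Hoxc5, whose own 196 exon reads were all counted as unique. How much the overlap with the Hoxc5 model adds to the levels of Hoxc6, Hoxc9 and Hoxc10 was not tested. On unique reads alone the Hoxc share of the family's RPKM was 11.3% to 14.2%, instead of 17.0% to 19.7%, and the posterior share was 62.9% to 64.9%.

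**Figure D5:**
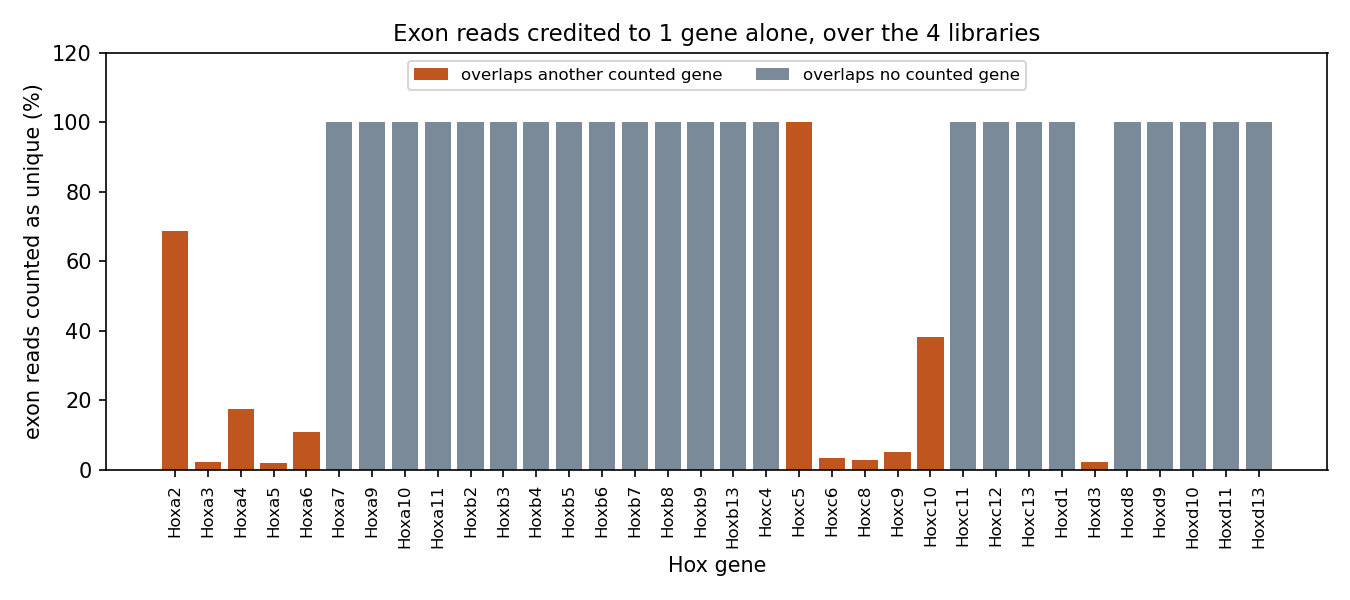
Percent of exon reads counted as unique to the gene, over the 4 libraries, for 34 Hox genes with an exon read, coloured by whether the gene overlaps another counted gene. The bars fall under 70% for 10 genes in the Hoxa, Hoxc and Hoxd clusters, and every gene without an overlap is at 100% after rounding.

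Hoxb2 stood apart in its splice junction. Of its 868 exon reads, 4 crossed the splice junction, where reads spread evenly over its exons would give 32.1, a ratio of 0.125. For the 14 members listed with 2 exons and at least 100 exon reads this ratio ranged from 0.125 to 2.52, with a median of 1.27. The antisense gene Hoxb3os spans all of Hoxb2, and 57.0% of the 59-base runs of the Hoxb2 transcript are also found, on the opposite strand, in transcripts of Hoxb3os. Whether the reads listed for Hoxb2 came from one or the other cannot be told apart in counts without strand, and Hoxb2 was the highest member of the anterior class.

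Genes that work with the Hox proteins were examined beside them. TALE homeodomain proteins bind DNA together with Hox proteins, and 0 of 8 tested genes of this family were called. At the 1.27% called over all genes, this list and the other lists of this paragraph would give about 0 calls. Their counts of 0 thus read no differently from the background. Pbx2 had 8.11 and 7.13 RPKM in Wildtype and 9.42 and 9.29 RPKM in Nfat5-Knockout. Polycomb proteins hold Hox genes silent and trithorax proteins keep them active, and 0 of 23 and 0 of 15 tested genes of these 2 lists were called, with median log2 fold changes of 0.02 and 0.02. Polycomb genes were all read, Ezh2 at 13.8 and 13.7 against 13.2 and 10.9 RPKM and Suz12 at 16.1 and 17.6 against 16.2 and 14.1 RPKM. Of 24 other genes of axial and limb position 7 were tested and 0 called, and 10 were at 0 RPKM in every library. Of 20 tested homeobox genes of skin outside the clusters 0 were called, the smallest adjusted p being that of Hopx (0.0598, edgeR), at 8.17 and 4.68 RPKM in Wildtype and 15.1 and 18.3 RPKM in Nfat5-Knockout.

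Hair keratin and hair shaft genes were examined beside Hoxc13, from a list chosen from general knowledge. Of its 16 genes, 12 stayed under 1 RPKM in every library and 5 were tested. Which of them Hoxc13 controls in these KCs was not tested. The hair and nail keratin Krt84 had 0.585 and 0.457 RPKM in Wildtype and 0.808 and 1.06 RPKM in Nfat5-Knockout (edgeR, adjusted p = 0.266). Foxn1, a transcription factor of hair shaft and thymus, was the 1 gene of the 5 tested that was called, against 1.27% of all genes tested. It had 0.73 and 1.48 RPKM in Wildtype and 4.04 and 3.54 RPKM in Nfat5-Knockout. Its log2 difference was 1.76 ± 0.28 (SE) at an adjusted p of 0.0398 in edgeR. Hoxc13 itself overlapped between the groups in RPKM, although not in normalized gene reads, where both Nfat5-Knockout libraries were the higher ones.

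RefSeq promoter windows of 300 bases, from 250 before to 50 after a gene start on GRCm38.p6, were at hand for 21 of the 38 members, in 23 windows. The letters TGGAAA, the core of the NFAT binding site, were found on either strand in 6 of the 23 windows, or 26.1%, and in 21.4% of all 32851 windows. They were in 1 of the 2 windows of Hoxd11, in 1 of the 2 of Hoxa10, and in those of Hoxd8, Hoxd12, Hoxa11 and Hoxc4. The other windows, that of Hoxd10 among them, had none.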

How the data were processed

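RNA from 4 cultures of tail KCs, 2 labelled Wildtype and 2 labelled Nfat5-Knockout, was made into poly(A) libraries and sequenced as single reads of 59 bases. The authors trimmed adapters and mapped the reads to GRCm38 in CLC Genomics Workbench with default settings, and deposited for each library and gene the counts of all gene reads, exon reads, unique reads, intron reads and exon-exon reads, beside RPKM. Strand use in counting and the annotation release are not given in the sources used here. All 38 members had the same start and end in GENCODE M21. The total gene reads were tested with edgeR 4.0.16 (quasi-likelihood test, filterByExpr, TMM, Benjamini-Hochberg adjustment, threshold 0.05) over 12614 genes. The step was tested on simulated data with known changes. Sums of RPKM were compared by a 2-sided exact permutation test. Alternatives were RLE factors, library totals, 2 other filters, DESeq2 1.42.0, exon or unique exon reads, limma 3.58.1 on log2(RPKM + 1) and log2(RPKM + 0.1), the replicate number as a block, and each library left out. For limma the count filter was applied to exon reads, a choice made after seeing that genes with an RPKM of 0 in every library, kept by the filter on gene reads, had no variance and left limma with almost no calls. Each library's values are given for members with a mean of at least 1 RPKM or an unadjusted p under 0.05, and other members by ranges, except where a sentence names one. Homeoboxes were located in the GENCODE reading frame by their conserved third-helix motif. Some genes and sequences are not reported here, in the text or the plots. The members, the gene lists and the rules were chosen with earlier results of these data known, and no gene list was tested as a set. The limit of 3 reads covers counting error only, since the reads carry no molecular identifiers, while SD and SE reflect the spread between libraries. The 20 noncoding RNAs of the Hox clusters on the list were not analysed here, as only 1 had an entry and it had no exon length.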

Additional observations from a re-analysis of the deposited data

How the results depend on the processing

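The count of 160 genes called was 1137 without the filter on low counts and 427 with DESeq2, and ranged from 16 to 478 when 1 library was left out, the lowest without Nfat5-Knockout replicate 2 and the highest without Wildtype replicate 2. The cause was not tested. The other alternatives stayed within 1.5 times, the replicate block giving 132. The count of 0 Hox genes called was 1 (Hoxd11) without the filter on low counts, and ranged from 0 to 1 over the fits without 1 library, Hoxd11 being called without Wildtype replicate 2. The replicate numbers do not pair the libraries by any label, and the deviations of same-numbered libraries correlated at -0.087. The block changed no call of a Hox gene. Of 292 values of the 21 named members under alternatives, 276 kept direction and side of the threshold, 2 (both Hoxd11) passed it and 14 changed sign. The log2 difference of Hoxc12, -0.02, became 0.001 with DESeq2, 0.036 and 0.078 with limma (pseudocounts 1 and 0.1) and 0.082 with the replicate block. Leaving out 1 library gave Hoxc12 -0.457 to 0.699 (the latter with an SE of 0.40, without Wildtype replicate 2), Hoxb9 -0.007 to 0.366, Hoxb7 -0.107 to 0.427, Hoxc11 -0.064 to 0.741 (each lowest without Wildtype replicate 1), Hoxc9 -0.236 to 0.212, Hoxd9 -0.167 to 0.014, Hoxb2 -0.395 to 0.054 and Hoxc10 -0.117 to 0.435. The ratios of summed RPKM per cluster and class moved by less than their replicate spread under every alternative run, unique reads included. With 2 libraries a group, leaving 1 out moves a group mean by less than the group's SD whatever the values. The runs without 1 library therefore do not test stability. Some ratios crossed 1, however. Without Wildtype replicate 1 the Hoxc ratio became 0.94 and the posterior ratio 0.985, where both were above 1 on all libraries. The anterior ratio, 1.01, became 0.998 without Wildtype replicate 2 and 0.918 without Nfat5-Knockout replicate 1.

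With 2 libraries a group, the sums could not reach a threshold, and members with few reads allow only coarse folds.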
